A study of Mus musculus with 60 samples.

Results

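The DNA replication and S phase genes described here are 43 genes, taken by symbol, that license origins of replication, unwind and copy DNA, and supply the nucleotides for the copy. All 43 were among the 27179 genes of the count table, and all 43 passed the filter on low counts, which kept 18057 genes. The study asked how the daily course of gene expression in the gut differs in arthritis, and sequenced RNA from a 5 mm section of mid-colon of each of 60 male DBA/1 mice. In collagen induced arthritis (CIA), mice aged 9 to 10 weeks had received bovine type II collagen in complete Freund's adjuvant and a collagen boost on day 21, and 30 such mice were culled 7 days after the first symptoms. The other 30 mice were naïve, shared cages with CIA mice and were culled at matched times. Colons were taken every 4 h, from ZT0 (lights on) through ZT12 (lights off) to ZT20, from 5 mice of each treatment at a time, and each mouse gave 1 library. Naïve mice had neither collagen nor adjuvant, so arthritis and immunization cannot be told apart in any comparison of the treatments. Library numbers run through all CIA mice before any naïve mouse. Whether handling followed that order is not known, and if it did, it cannot be told apart from treatment either.

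Total counts ranged from 31382664 to 57564488 in CIA and from 25840240 to 61425974 in naïve libraries, and the lowest count of any of the 43 genes in any library was 38. Levels are CPM, counts relative to the scaled size of the library, and log2 fold changes are CIA over naïve. All 20 colon epithelium markers passed the filter, and their summed level ranged from 39390 to 63360 CPM in CIA mice, against 40000 to 65030 CPM in naïve mice. One pair of libraries, replicate 4 of each treatment at ZT4, stood apart at the clock gene Arntl, with 72.6 CPM in the CIA library against 28.7 to 41 CPM in the other CIA libraries and 12.03 CPM in the naïve library against 53.9 to 70.3 CPM in the other naïve libraries. Each of these libraries thus lay beyond the range of the other treatment. The mean log2 CPM of the 43 genes moved with it, at 3.94 in this CIA library, the highest of its group, and at 3.55 in this naïve library, the lowest of its group. Whether the libraries were exchanged was not tested, and their labels were kept. Further libraries stood apart by interferon-stimulated genes (naïve ZT4 replicate 5 and naïve ZT12 replicate 3) and by skeletal muscle genes (naïve ZT0 replicate 5 and CIA ZT12 replicate 2). Counts of genes lower in CIA mice are given with and without each pair.

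Before a cell copies its DNA, the origin recognition complex, Cdc6 and Cdt1 load the MCM helicase onto origins, a step called licensing. In S phase Cdc45 and the GINS complex turn MCM into the active helicase, polymerase alpha and primase lay down primers, and polymerases delta and epsilon extend them on the ring-shaped clamp Pcna, which the RFC complex loads. In the colon, the cells that divide lie in the lower part of the crypts and renew the epithelium, and replication genes are mostly transcribed by E2F factors as cells pass from G1 into S phase.

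Because most of the 43 genes rose and fell together, the promoters of the 43 were searched for the words that E2F factors are known to bind, TTTCCCGC, TTTCGCGC, TTTGCCGC and TTTGGCGC, on both strands. The RefSeq table of GRCm38.p6 gave a window, from 250 bases before to 50 bases after a transcript start, for 35 of the 43 genes. At least 1 of the 4 words stood in the window of 14 of these 35 genes (40%), against 2.6% of all 27025 genes with a window. Those 27025 genes, unlike the 43, include genes that did not pass the filter on low counts. The CCAAT box, CCAAT on either strand, stood in 22 of 35 (62.9%) against 41.1%. The E-box CACGTG, which clock factors are known to bind, stood in 6 of 35 (17.1%) against 8.09%, and TTTGAA, the core of the element known from mitosis genes, in 6 of 35 (17.1%) against 20.2%. A word is a match of letters, not a shown binding site. The stretches below come from 6 genes, 1 or 2 from each of 5 roles, and are shown because E2F words, in capitals, stand there before the transcript start that the table uses. In Cdc6 and Pola1 that start lies inside the annotated gene, which reaches further upstream, so these stretches lie within the gene span. They read 5′ to 3′ on the strand of the gene. In Mcm5 and in the first run of Mcm6 a pair of words on opposite strands overlaps.
Cdc6 promoter, chr11:98907983-98908050, plus strand: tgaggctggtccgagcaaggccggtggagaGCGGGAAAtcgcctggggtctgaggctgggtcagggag
Mcm5 promoter, chr8:75109326-75109397, plus strand: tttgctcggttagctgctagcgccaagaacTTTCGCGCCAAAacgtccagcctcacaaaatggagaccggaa
Mcm6 promoter, chr1:128359715-128359845, minus strand: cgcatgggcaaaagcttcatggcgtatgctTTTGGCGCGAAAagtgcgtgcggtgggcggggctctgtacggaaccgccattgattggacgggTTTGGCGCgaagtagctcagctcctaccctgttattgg
Gins3 promoter, chr8:95633488-95633555, plus strand: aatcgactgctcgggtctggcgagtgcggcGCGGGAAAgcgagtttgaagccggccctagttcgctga
Pola1 promoter, chrX:93632256-93632323, minus strand: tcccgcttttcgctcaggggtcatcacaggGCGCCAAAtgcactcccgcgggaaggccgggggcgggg
Rfc3 promoter, chr5:151651209-151651248, minus strand: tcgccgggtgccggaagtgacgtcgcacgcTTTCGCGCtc
Counted from that transcript start, the word of Cdc6 began at position -138 and the upstream word of Rfc3 at -10. Mcm7 and Orc1 also held a word before the start used, again inside the gene span, and Cdt1, Lig1, Mcm3, Pold1, Pold3 and Pole2 held words after it alone.

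Replication genes kept a strong daily rhythm in the colon of both treatments. A 24 h cosine was fitted to log2 CPM with limma, and 41 of the 43 genes were rhythmic in naïve mice, against 36.9% of all genes tested, and 42 in CIA mice, against 29.7%. Amplitudes, from the daily mean to the peak on the log2 scale, had a median of 0.46 in naïve and 0.44 in CIA mice, beside 0.18 and 0.16 over all genes. In naïve mice the group mean was highest at ZT20 for 35 of the genes and lowest at ZT8 for 32. In CIA mice it was highest at ZT0 for 26 and at ZT20 for 14, and lowest at ZT12 for 30 and at ZT8 for 10. The highest group mean was 1.93-fold the lowest in naïve and 1.86-fold in CIA mice (medians over the 43 genes). In whole tissue, fewer cells in S phase and less RNA per cell cannot be told apart.

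**Figure D1:**
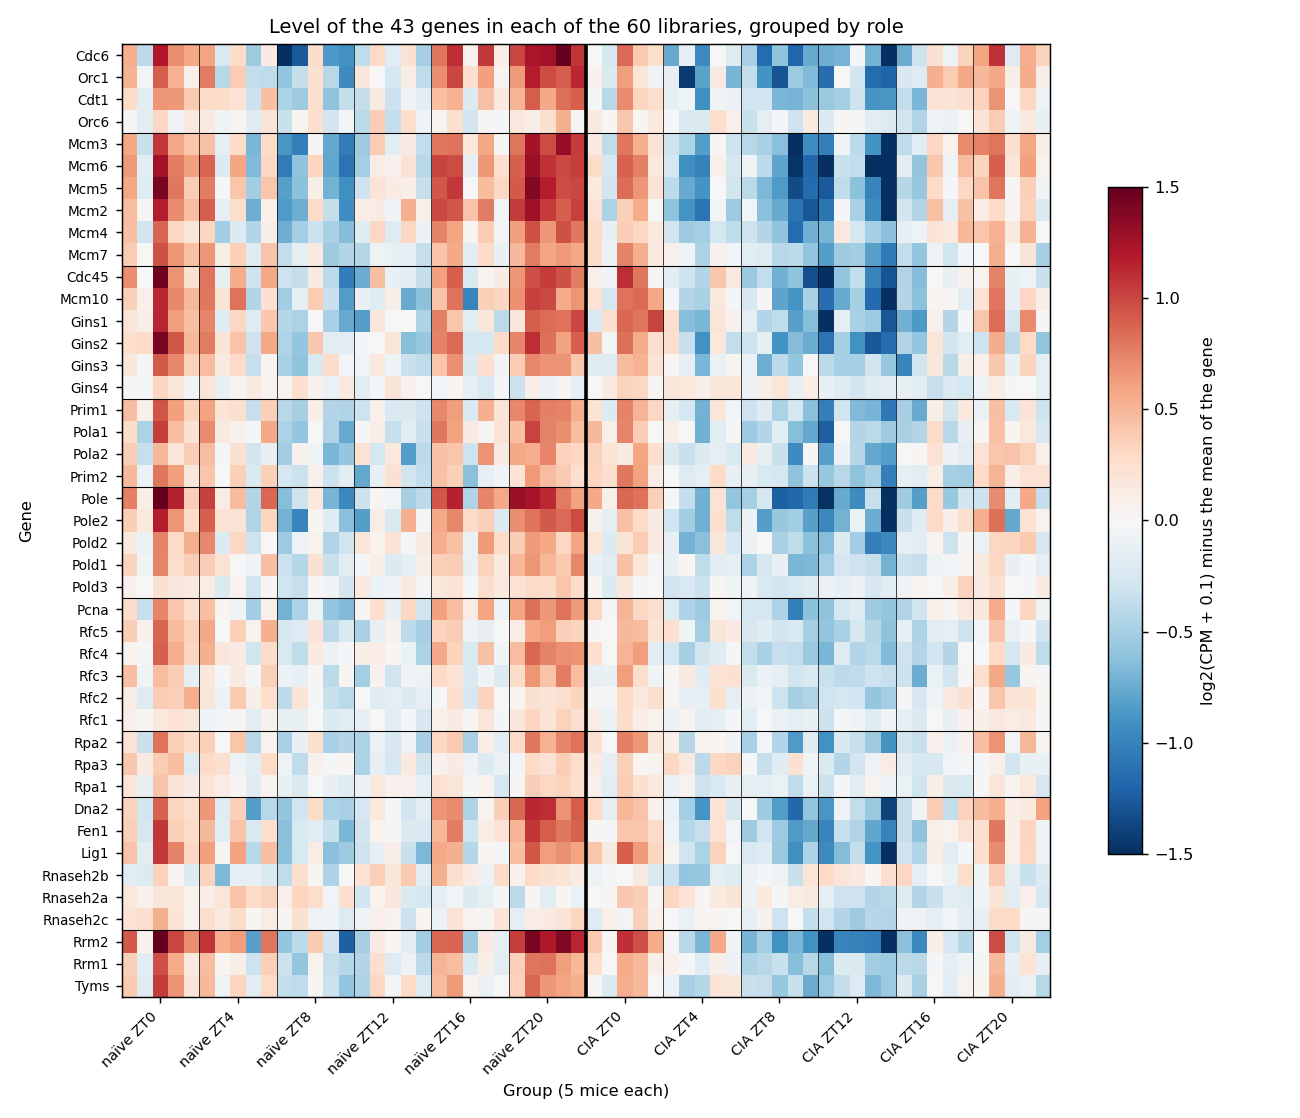
Level of each of the 43 genes (rows, grouped by role and ordered by naïve amplitude) in each of the 60 libraries (columns, 5 mice in each of 12 groups, naïve on the left and CIA on the right), as log2(CPM + 0.1) minus the mean of the gene, with colours held at 1.5 beyond that size. Most rows are high at ZT20 and ZT0 and low at ZT8 and ZT12 in both treatments; Rnaseh2a, Rnaseh2b and Gins4 are exceptions.

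Of the licensing genes, Orc1, Cdc6 and Cdt1 were rhythmic in both treatments and Orc6 in neither (limma adjusted p = 0.185 in naïve and 0.0543 in CIA mice). Cdc6 (gene 23834, chromosome 11, 98907709 to 98923942), which helps to load MCM onto origins, had the largest naïve amplitude of the 43 genes. It ranged from 1.398 to 13.5 CPM in the 30 naïve mice (median 5.71) and from 1.32 to 10.1 CPM in the 30 CIA mice (median 4.12). At ZT20 the naïve mice, in replicate order, had 9.56, 11.1, 11.5, 13.5 and 9.997 CPM and the CIA mice 7.14, 10.1, 4.1, 6.94 and 5.95 CPM. The groups overlapped there by 1 CIA mouse. At ZT8 the means were 2.81 ± 1.69 in naïve and 2.65 ± 0.596 CPM in CIA mice (SD, n = 5). The amplitudes were 0.91 ± 0.12 and 0.70 ± 0.12 (SE), and the peak lay at ZT20.1 ± 0.504 in naïve and ZT21.2 ± 0.655 in CIA mice. Cdt1, which also loads MCM, peaked at ZT20.99 ± 0.621 in naïve and ZT21.6 ± 0.655 in CIA mice, and Orc1, a subunit of the origin recognition complex, at ZT19.9 ± 0.631 in naïve and ZT20.1 ± 0.605 in CIA mice.

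All 6 MCM genes, whose products form the ring of the helicase, were rhythmic in both treatments, with naïve peaks from ZT19.6 (Mcm4) to ZT21.9 (Mcm7). Mcm3 (gene 17215, chromosome 1, 20802966 to 20820312) had the largest naïve amplitude of them and ranged from 11.3 to 57.7 CPM in the 30 naïve mice (median 28.4) and from 6.45 to 40.8 CPM in the 30 CIA mice (median 19.9). Values at ZT20 were 40.8, 55.7, 45.95, 57.7 and 48.3 CPM in the naïve mice and 39.3, 40.8, 27.9, 35.1 and 25.1 CPM in the CIA mice. The highest CIA mouse lay just below the lowest naïve mouse, but Mcm3 was not called at ZT20 (edgeR adjusted p = 0.1395). Its amplitudes were 0.78 ± 0.11 and 0.73 ± 0.11, with peaks at ZT20.2 ± 0.531 in naïve and ZT20.9 ± 0.565 in CIA mice. Mcm2 (gene 17216, chromosome 6, 88883474 to 88898780) ranged from 6.22 to 29.2 CPM in the 30 naïve mice (median 15.4) and from 4.08 to 17.7 CPM in the 30 CIA mice (median 10.1). At ZT20 its values were 24.9, 29.2, 24.97, 22.4 and 24.4 CPM in naïve and 12.9, 14.8, 12.4, 15.3 and 10.4 CPM in CIA mice, with no overlap. At ZT12 they were 12.9, 13.01, 11.6, 17.4 and 12.7 CPM and 5.57, 11.7, 8.52, 6.14 and 4.08 CPM, and 1 CIA mouse lay within the naïve range.

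Of the genes that activate the helicase, Mcm10, Cdc45, Gins1, Gins2 and Gins3 peaked together, between ZT21.3 and ZT22.1 in naïve mice. Cdc45 (gene 12544, chromosome 16, 18780447 to 18811972), which travels with MCM at the fork, ranged from 2.88 to 16.5 CPM in the 30 naïve mice (median 6.84) and from 2.06 to 13 CPM in the 30 CIA mice (median 5.09). At ZT20 it had 9.52, 11.8, 12.5, 11.8 and 10.3 CPM in naïve mice and 6.23, 10.1, 5.53, 5.75 and 4.72 CPM in CIA mice, and 1 CIA mouse reached the naïve range. Its peaks lay at ZT21.5 ± 0.666 in naïve and ZT22.9 ± 0.634 in CIA mice. Gins2 (gene 272551, chromosome 8, 120581266 to 120589075), a subunit of GINS, ranged from 2.58 to 11.2 CPM in the 30 naïve mice (median 4.99) and from 1.64 to 7.34 CPM in the 30 CIA mice (median 3.23). Its values at ZT20 were 6.87, 8.88, 7.29, 6.27 and 7.702 CPM in naïve mice and 3.28, 6.06, 3.08, 5.06 and 2.67 CPM in CIA mice, without overlap.

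Gins4 (gene 109145, chromosome 8, 23226610 to 23237668), another subunit of GINS, had another daily course than the other GINS genes. Its level ranged from 15.5 to 24.2 CPM in the 30 naïve mice (median 19.6) and from 15.3 to 24.6 CPM in the 30 CIA mice (median 19.4). In naïve mice its group means lay between 18.3 and 20.6 CPM, and it was not rhythmic (amplitude 0.092, limma adjusted p = 0.0512). In CIA mice the values were 21.9, 21.6, 20.7, 21.9 and 22.1 CPM at ZT4 and 17.99, 17.2, 15.3, 16.6 and 16.2 CPM at ZT16, and every mouse of the first group was above every mouse of the second. The CIA amplitude was 0.21 ± 0.032, with a peak at ZT2.44 (adjusted p = 3.72e-06). It was the 1 gene of the 43 that took the class change in the model selection, beside 0.233% of all genes, with a weight of 0.627 for change and 0.318 for gain. The test of the difference in rhythm itself did not pass for Gins4 (adjusted p = 0.731 with edgeR and 0.6895 with limma).

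The genes of the polymerases were rhythmic in both treatments, 9 of 9. Prim1 (gene 19075, chromosome 10, 128015215 to 128030030), the catalytic subunit of primase, ranged from 6.47 to 17.8 CPM in the 30 naïve mice (median 10.8) and from 4.31 to 15.5 CPM in the 30 CIA mice (median 7.74). At ZT20 it had 15.2, 16.99, 15.7, 15.5 and 13.4 CPM in naïve and 8.604, 12.6, 7.81, 10.6 and 7.42 CPM in CIA mice, and the groups did not overlap. At ZT0 the means were 13.2 ± 3.05 and 11.8 ± 2.81 CPM (SD, n = 5). Its peak lay at ZT21.1 ± 0.565 in naïve and ZT23.2 ± 0.671 in CIA mice. Pola1, the catalytic subunit of polymerase alpha, peaked at ZT20.9 ± 0.677 in naïve and ZT22.7 ± 0.759 in CIA mice, and the subunits Pola2 and Prim2 at ZT20.6 and ZT22.8 in naïve mice.

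Pole (gene 18973, chromosome 5, 110286319 to 110337468), the catalytic subunit of polymerase epsilon, which copies the leading strand, had naïve and CIA amplitudes of 0.75 ± 0.12 and 0.78 ± 0.12, the largest of the polymerase genes in both. It ranged from 2.85 to 16.4 CPM in the 30 naïve mice (median 7.62) and from 1.15 to 10.3 CPM in the 30 CIA mice (median 4.43). At ZT20 the values were 14.01, 13.5, 12.4, 9.75 and 8.62 CPM in naïve and 4.52, 9.29, 5.04, 8.47 and 4.39 CPM in CIA mice, and 1 CIA mouse was above the lowest naïve mouse. Pold1 (gene 18971, chromosome 7, 44532744 to 44548815), the catalytic subunit of polymerase delta, ranged from 12.8 to 28.7 CPM in the 30 naïve mice (median 20.1) and from 10.5 to 23.4 CPM in the 30 CIA mice (median 15.6). The ZT20 values were 24.3, 27.3, 24.2, 22.5 and 28.4 CPM in naïve and 18.9, 21.3, 15.9, 16.9 and 15.6 CPM in CIA mice, with no overlap. Its accessory subunit Pold3 had amplitudes of only 0.22 ± 0.031 and 0.17 ± 0.031, with peaks at ZT19.4 ± 0.551 in naïve and ZT19.1 ± 0.7195 in CIA mice.

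Of the clamp and its loader, Pcna (gene 18538, chromosome 2, 132249286 to 132253180) ranged from 33.4 to 96.7 CPM in the 30 naïve mice (median 61.9) and from 26.7 to 80.6 CPM in the 30 CIA mice (median 50.4). At ZT20 it had 82.6, 96.7, 85.4, 96.02 and 84.8 CPM in naïve and 61.6, 80.6, 53.4, 68.2 and 52.7 CPM in CIA mice, and the CIA mice were all below the naïve mice. At ZT0 the means were nearly equal, 67.4 ± 17.1 and 66.2 ± 8.68 CPM (SD, n = 5). Its peak lay at ZT19.8 ± 0.527 in naïve and ZT21.5 ± 0.638 in CIA mice. Rfc4 (gene 106344, chromosome 16, 23113948 to 23127730) ranged from 5.07 to 13.3 CPM in the 30 naïve mice (median 7.81) and from 4.38 to 10.99 CPM in the 30 CIA mice (median 5.81). Values at ZT20 were 9.82, 13.03, 11.9, 11.5 and 11.3 CPM in naïve and 7.06, 8.75, 5.95, 7.74 and 5.45 CPM in CIA mice, again without overlap. Rfc1, the large subunit of the loader, had the smallest amplitudes of the loader genes, 0.19 ± 0.025 and 0.12 ± 0.025.

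Rpa2 (gene 19891, chromosome 4, 132768360 to 132778746), a subunit of the complex that coats single-stranded DNA, ranged from 9.96 to 25 CPM in the 30 naïve mice (median 14.9) and from 7.46 to 23.9 CPM in the 30 CIA mice (median 13.8). At ZT20 its values were 17.3, 24.6, 20.3, 23.6 and 24.9 CPM in naïve and 19.4, 22.6, 13.7, 20.1 and 14.5 CPM in CIA mice, and 3 of the 5 CIA mice were above the lowest naïve mouse. Its peak lay at ZT21.6 ± 0.699 in naïve and ZT22.4 ± 0.592 in CIA mice. Its partners Rpa1 and Rpa3 had smaller naïve amplitudes, 0.16 and 0.22, beside 0.41 for Rpa2.

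Of the genes that join Okazaki fragments, the short pieces of the lagging strand, Dna2 (gene 327762, chromosome 10, 62946983 to 62974188), a nuclease and helicase that trims long flaps, ranged from 2.74 to 10.9 CPM in the 30 naïve mice (median 5.71) and from 1.82 to 7.55 CPM in the 30 CIA mice (median 4.67). Its values at ZT20 were 9.03, 10.9, 10.8, 7.95 and 9.38 CPM in naïve and 6.92, 7.24, 5.297, 5.46 and 7.55 CPM in CIA mice. The lowest naïve mouse was above the highest CIA mouse, but Dna2 was not among the genes called at ZT20. The flap nuclease Fen1 peaked at ZT20.8 ± 0.552 in naïve and ZT22.04 ± 0.556 in CIA mice, and the ligase Lig1 at ZT21.9 ± 0.638 in naïve and ZT22.9 ± 0.526 in CIA mice. The subunits of ribonuclease H2, which removes ribonucleotides from DNA, did not share one time. Rnaseh2a, its catalytic subunit, peaked at ZT4.31 ± 0.661 in naïve and ZT2.36 ± 0.535 in CIA mice. Rnaseh2b peaked at ZT16.3 ± 1.01 in naïve and ZT14.6 ± 1.17 in CIA mice, and Rnaseh2c at ZT23.6 ± 1.12 in naïve and ZT23.3 ± 0.704 in CIA mice. The amplitudes of the 3 subunits lay between 0.14 and 0.27.

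For nucleotide supply, Rrm2 (gene 20135, chromosome 12, 24708254 to 24714146), the small subunit of ribonucleotide reductase and the one that cells make in S phase, had amplitudes of 0.80 ± 0.13 and 0.93 ± 0.13. It ranged from 4.08 to 33.02 CPM in the 30 naïve mice (median 13.5) and from 1.76 to 20.7 CPM in the 30 CIA mice (median 7.18). The ZT20 values were 19.9, 26.1, 22.4, 25.5 and 21.4 CPM in naïve and 9.596, 19.2, 7.83, 10.6 and 6.75 CPM in CIA mice, with 1 CIA mouse far above the other 4 and still below all naïve mice. At ZT12 the values were 6.83, 10.5, 9.78, 8.64 and 6.71 CPM and 1.85, 4.78, 4.74, 4.64 and 1.76 CPM, again without overlap. Rrm1, the large subunit, had a smaller amplitude, 0.44 ± 0.063 and 0.37 ± 0.063. Tyms, which makes thymidylate, peaked at ZT21.1 ± 0.688 in naïve and ZT22.6 ± 0.8901 in CIA mice. A pseudogene, Tyms-ps, stands in the same table, and reads that fit both could not be told apart.

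**Figure D2:**
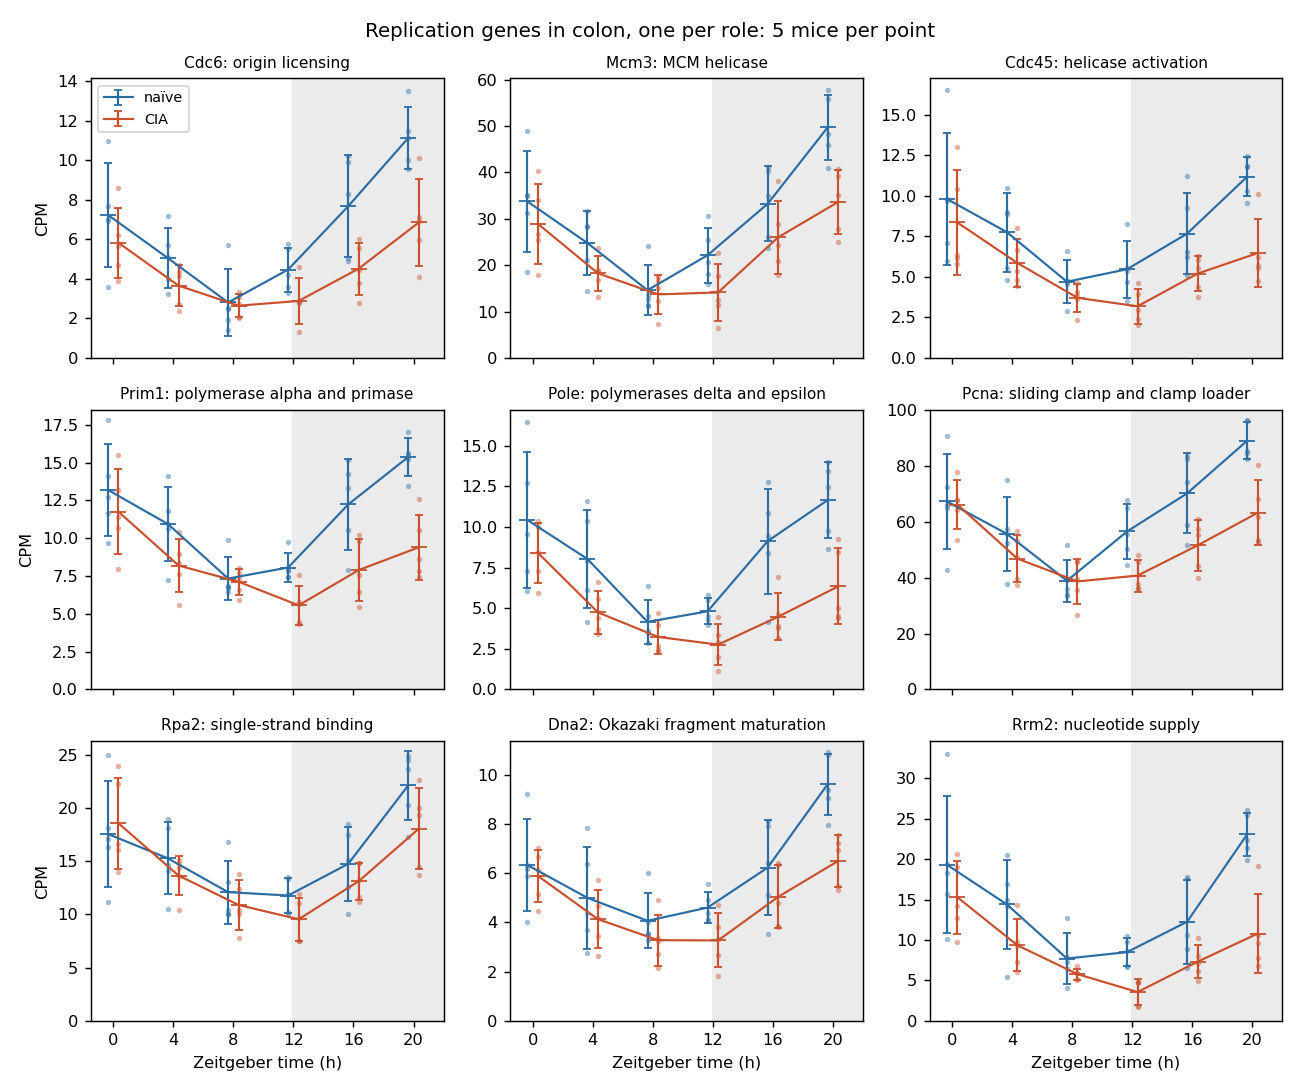
CPM against Zeitgeber time (h) for the gene of each of the 9 roles with the largest naïve amplitude. Small points are single mice, lines join the means of 5 mice, bars are SD, the grey band marks the dark phase as sampled, naïve mice are blue and CIA mice orange. At ZT20 the naïve mean is above the CIA mean in every panel, and the ratio of the means is nearer to 1 at ZT8 than at ZT20.

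Most peaks of the 41 genes rhythmic in both treatments fell in the dark phase. In naïve mice 40 of 41 peaked between ZT12 and ZT24, against 52.8% of the 3694 genes rhythmic in both treatments, and in CIA mice 38 of 41, against 51.5%. The mean peak was at ZT21.2 in naïve and ZT22.3 in CIA mice. By role the naïve mean ran from ZT20.3 for licensing and ZT20.4 for MCM through ZT20.5 for polymerases delta and epsilon, ZT21.4 for polymerase alpha and primase, ZT21.5 for the clamp, its loader and nucleotide supply, ZT21.6 for Okazaki fragment maturation and ZT21.7 for helicase activation to ZT22 for single-strand binding. The SE of a single gene's naïve peak ran from 0.463 to 1.12 h, and the order of the roles was not tested. In CIA mice licensing was again first, at ZT20.97, followed by MCM at ZT21.4 and the delta and epsilon polymerases at ZT21.5, and single-strand binding was last at ZT23.6.

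Of these 41 genes, 36 had a later fitted peak in CIA than in naïve mice, against 61.2% of the 3694 genes, and the median shift was 1.137 h, beside 0.388 h over those genes. Among the genes with a naïve peak from ZT18 to ZT24, 61.4% were later in CIA mice, with a median shift of 0.401 h. The 95% interval of a single gene's shift lay above 0 for 3 of 41 genes, against 4.44% of the 3694. It lay below 0 for 1 of the 41, against 142 of the 3694, and held 0 for the rest. Among the 1315 genes with a naïve peak from ZT18 to ZT24 it lay above 0 for 49 and below 0 for 57. Prim1 was later by 2.07 h (interval 0.318 to 3.83), Pcna by 1.79 h (0.134 to 3.45) and Rfc3 by 2.53 h (0.131 to 4.93). Rnaseh2a shifted by -1.95 h (-3.66 to -0.251), to an earlier time. The genes share their libraries, so 36 of 41 is not a count of independent shifts.

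**Figure D3:**
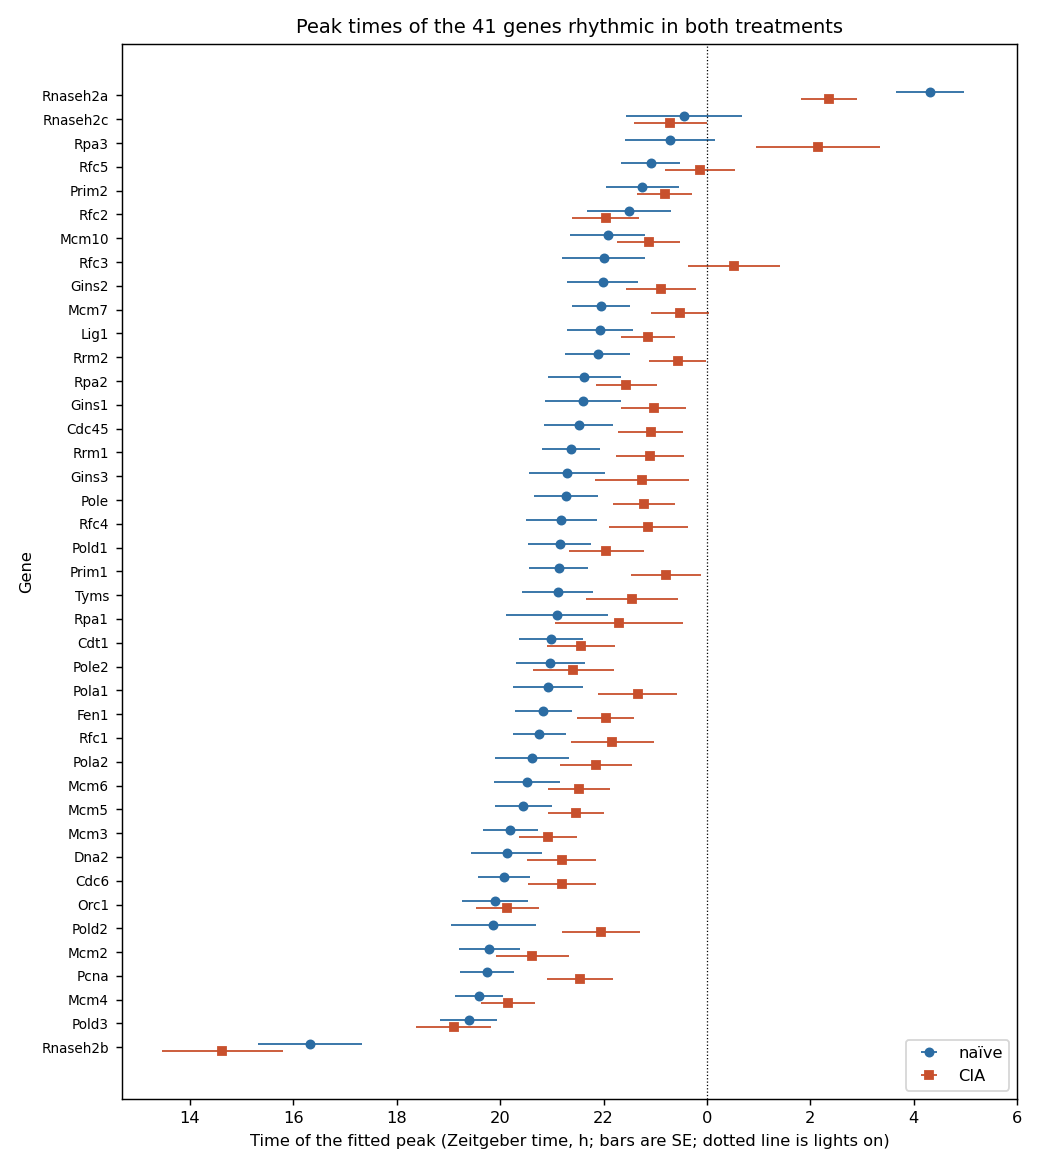
Fitted peak time (Zeitgeber time in h, with SE) of the 41 genes rhythmic in both treatments, ordered by the naïve peak, with naïve mice as blue circles and CIA mice as orange squares. The CIA peak lies later than the naïve peak for 36 genes, and 5 genes, among them Rnaseh2a and Rnaseh2b, go the other way.

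A test of the whole difference in rhythm found no gene among the 43. With edgeR 0 passed, against 0.0222% of all genes tested, with 2 at an unadjusted p under 0.05 and a lowest adjusted p = 0.731. With limma 0 passed, with 1 at an unadjusted p under 0.05 and a lowest adjusted p = 0.69, and with DESeq2 0 passed. In the model selection 42 of 43 took the class same, a shared cosine with a mean per treatment, against 34.7% of all genes. All genes include those without a rhythm. Among them 6265 took the class same, 839 loss, 433 gain and 42 change, so same was the most common rhythmic class there too. The 42 of 43 include Orc6, whose rhythm passed in neither treatment. Their count was 36 with a weight of at least 0.8 and 30 with Akaike weights. Amplitudes were larger in naïve mice for 22 of the 41 genes rhythmic in both treatments, against 54.1% of all such genes. Without replicate 3 of the naïve mice at ZT8 this count over all 43 genes was 31 in place of 22.

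Replication genes were lower in CIA colon across the day. Of the 43 genes, 31 fell in CIA mice, against 20.4% of all genes tested, and 0 rose, against 17.6% (edgeR's quasi-likelihood test, adjusted p under 0.05). None had a higher value at an unadjusted p under 0.05, and DESeq2 called 29 lower and 0 higher. With smooth muscle score added to the fit, 0 of the 43 genes passed with edgeR, with 11 at an unadjusted p under 0.05. All 20 smooth muscle markers were higher in CIA mice. Every whole-day call of the 43 genes given below was thus lost in that fit, and calls at single time points are given further on. Without the pair of libraries that stood apart by clock genes 31 were lower, without the interferon pair 31 and without the skeletal muscle pair 27. All 43 log2 fold changes were below 0, with a median of -0.35 beside -0.025 over all genes. They ran from -0.71 (Rrm2) to -0.02 (Gins4), and 33 of the genes had a lower group mean in CIA mice at 6 of 6 time points.

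Pold1 was the gene with the smallest adjusted p, at 15.4 ± 2.94 CPM over the 30 CIA mice against 19.9 ± 4.33 CPM over the 30 naïve mice (SD), a log2 fold change of -0.37 (SE 0.075, edgeR adjusted p = 0.000118). Rfc4 changed by -0.43 (SE 0.092, edgeR adjusted p = 0.000205), Mcm2 by -0.68 (SE 0.15, edgeR adjusted p = 0.000286) and Gins2 by -0.58 (SE 0.14, edgeR adjusted p = 0.000968). All 6 MCM genes fell, with Mcm5 at -0.61 (SE 0.17), Mcm6 at -0.53 (SE 0.18), Mcm3 at -0.41 (SE 0.17), Mcm7 at -0.36 (SE 0.11) and Mcm4 at -0.29 (SE 0.12). The calls of Mcm3 and Mcm4 were close to the threshold (adjusted p = 0.0474 and 0.0498 with edgeR) and were lost in 34 and 35 of 60 runs that each left out 1 library. The calls of Pold3, Rfc3 and Dna2 were lost in 31, 37 and 17 of these runs.

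All 5 genes of polymerases delta and epsilon and all 3 of nucleotide supply fell, and Pole and Rrm2 changed most among them, by -0.69 (SE 0.18) and -0.71 (SE 0.20). With the smooth muscle score in the fit Pole was at -0.65 (edgeR adjusted p = 0.0823) and Rrm2 at -0.53 (adjusted p = 0.206). Of the licensing genes 3 of 4 fell, Cdc6 by -0.54 (SE 0.18), Orc1 by -0.47 (SE 0.15) and Cdt1 by -0.35 (SE 0.11). Of the genes that activate the helicase 4 of 6 fell, Mcm10, Cdc45, Gins2 and Gins3, with Cdc45 at -0.51 (SE 0.15), and Gins1, at -0.29 (SE 0.15), did not pass. Of polymerase alpha and primase, Pola1 and Prim1 fell, by -0.36 (SE 0.12) and -0.43 (SE 0.12), and Pola2 and Prim2 did not pass. Of the clamp and loader 4 of 6 fell, with Pcna at -0.30 (SE 0.10), and Rfc1 and Rfc2 did not pass. Okazaki fragment maturation had 3 of 6 lower, Fen1, Dna2 and Rnaseh2c, and single-strand binding 1 of 3, Rpa1 at -0.13 (SE 0.047). Lig1, Rnaseh2a and Rnaseh2b did not pass, nor did Rpa2, Rpa3 and Orc6. Of the 22 genes with the larger naïve amplitudes 20 fell, with a median of -0.42, and of the other 21 genes 11 fell, with a median of -0.16; amplitude and fold change were measured in the same libraries.

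**Figure D4:**
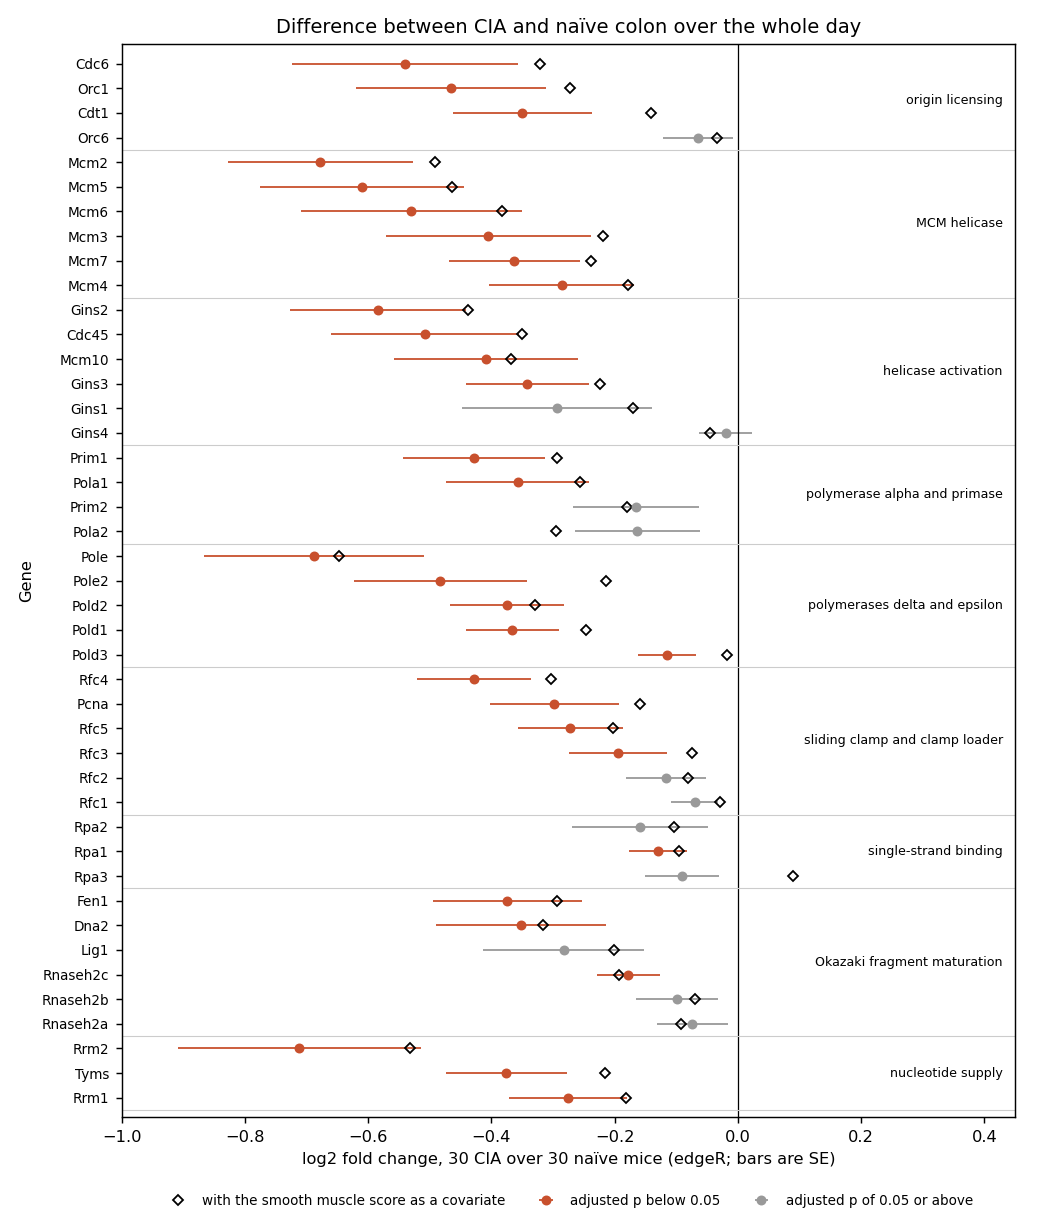
Log2 fold change of CIA over naïve mice (30 and 30 mice, edgeR, bars are SE) for the 43 genes, grouped by role; orange points have an adjusted p below 0.05 and grey points do not, and open diamonds give the value when smooth muscle score was a covariate. All 43 points lie below 0, and with the covariate 42 of 43 stay below 0 and 38 of 43 lie higher than without it.

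RNA levels of cell type markers differed with treatment, and the makeup of the sections was not measured here. All 20 smooth muscle markers rose in CIA mice, and their summed level ranged from 17270 to 56510 CPM in CIA mice, against 9794 to 43510 CPM in naïve mice. The smooth muscle score, the mean log2 CPM of these markers, was 9.79 ± 0.403 in CIA and 9.11 ± 0.447 in naïve mice (SD, n = 30), and higher in CIA mice at 6 of 6 time points. The 12 enteric neuron markers rose as well, and 8 of 9 macrophage and 5 of 9 T cell markers fell. For immune cells the paper reports similar subsets in both treatments, inferred from its RNA data. It also reports no difference by flow cytometry of the colonic lamina propria. Of 11 crypt base markers 8 fell and 2, Nkd1 and Smoc2, rose, by 0.49 and 0.25; both were named after their values were seen. The epithelium score, in contrast, was 10.3 in both treatments, with 4 of 20 markers lower and 1 higher. When the smooth muscle score was added to the fit, 42 of 43 values stayed below 0, with a median of -0.22, and none passed. The score itself differed with treatment, so this fit cannot fully separate score from treatment. The share of all genes called, in either direction, was then 5.34% in place of 38%. With the epithelium score as a covariate 27 of 43 were lower. No marker of these lists was at 0 in all libraries, and their part in the lower level was not tested.

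At single time points, calls were made at ZT12 and ZT20. At ZT12 9 genes were lower in CIA mice, against 6.42% of all genes, and at ZT20 16, against 6.88%. At ZT0 0 were called lower with edgeR (0.0111% of all genes), at ZT4 0 (0.642%), at ZT8 0 (0.0332%) and at ZT16 0 (0.00554%), with 2, 16, 0 and 21 at an unadjusted p under 0.05 in that order, and none was called higher at any time. DESeq2 called 32 gene and time point pairs over the day, in place of 25. The median log2 fold change of the 43 genes was -0.16 at ZT0, -0.30 at ZT4, -0.10 at ZT8, -0.47 at ZT12, -0.36 at ZT16 and -0.49 at ZT20, beside a median over all genes between -0.039 and 0.00034. The difference between time points itself was not shown: 0 of 43 genes had a treatment effect that differed over the day (edgeR, against 0% of all genes, 1 at an unadjusted p under 0.05), and DESeq2 also gave 0.

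At ZT12 all 5 CIA mice were below all 5 naïve mice for 7 of the 43 genes, against 4.66% of all genes, and at ZT20 for 14, against 6.87%. At ZT12 the genes called were Fen1, Gins2, Mcm2, Mcm5, Mcm6, Mcm7, Pold2, Rnaseh2c and Rrm2. Rrm2 had the lowest value there, -1.25 (SE 0.32, edgeR adjusted p = 0.0111), and Mcm2 was at -0.91 (SE 0.27, edgeR adjusted p = 0.0239). At ZT20 they were Cdc45, Fen1, Gins2, Mcm2, Mcm5, Mcm7, Pcna, Pola1, Pold1, Pole, Prim1, Rfc3, Rfc4, Rrm1, Rrm2 and Tyms. Rrm2 was at -1.10 (SE 0.32, edgeR adjusted p = 0.02096), Mcm2 at -0.94 (SE 0.27, edgeR adjusted p = 0.01897), Rfc4 at -0.72 (SE 0.16, edgeR adjusted p = 0.00831) and Pold1 at -0.52 (SE 0.13, edgeR adjusted p = 0.0132). Fen1, Gins2, Mcm2, Mcm5, Mcm7 and Rrm2 were called at both times. At ZT8, where no call was made, the values ran from -0.41 (Rrm2) to 0.13 (Pola2), with Gins2 at -0.38, Pole at -0.36, Cdc6 at -0.079 and Pcna at -0.0084. When the smooth muscle score was added to the fit, 3 pairs of gene and time point were called in place of 25, and there were 35 without the pair of libraries that stood apart by clock genes, both of them from ZT4, 20 without the interferon pair and 31 without the skeletal muscle pair. The share of all genes called at single times was not counted for these settings or for DESeq2. Leaving out a single mouse lowered the 25 pairs to 16 for replicate 4 of the CIA mice at ZT12. At ZT20 it lowered them to 12 and 13 for CIA replicates 3 and 5, and to 13, 15 and 15 for naïve replicates 2, 3 and 5.

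**Figure D5:**
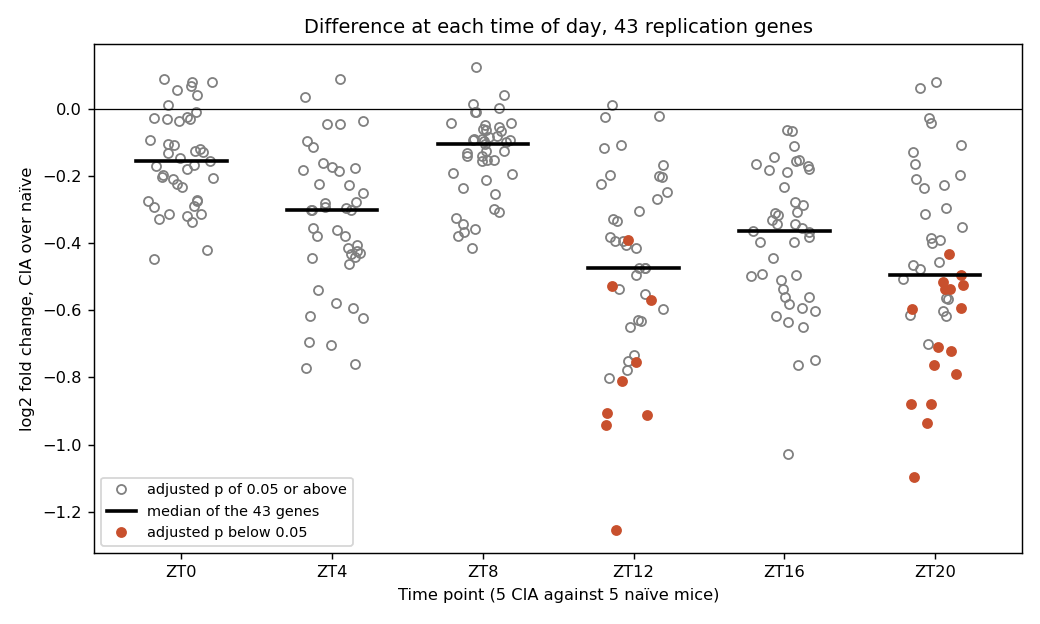
Log2 fold change of CIA over naïve mice at each time point (5 against 5 mice, edgeR) for the 43 genes; filled points have an adjusted p below 0.05, open points do not, and bars are medians. The medians are lowest at ZT12 and ZT20, at -0.47 and -0.49, and nearest to 0 at ZT8, at -0.10.

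Other genes of the pathway were read from lists of related genes. Of 28 further genes of the replication fork 15 were lower in CIA mice and 0 higher, with a median of -0.18, and the 18 rhythmic in both treatments peaked on average at ZT20.8 in naïve and ZT22.1 in CIA mice. Wdhd1, which ties polymerase alpha to the helicase, peaked at ZT20.1 in naïve and ZT20.9 in CIA mice and changed by -0.38 (SE 0.14, edgeR adjusted p = 0.0239). Orc4, another subunit of the origin recognition complex, had a naïve amplitude of 0.21 and did not pass for treatment, at -0.045 (SE 0.041, edgeR adjusted p = 0.402). Of 13 genes of chromatin assembly at the fork 8 were lower and 0 higher (median -0.22), among them the histone chaperone Nasp at -0.19 (SE 0.08, edgeR adjusted p = 0.04804), and the remodeller Hells, at -0.40 (SE 0.17, edgeR adjusted p = 0.0522), did not pass. Of 14 further nucleotide supply genes 9 were lower and 1, Rrm2b, was higher, at 0.23 (SE 0.071, edgeR adjusted p = 0.00663); Rrm2b is the small subunit of ribonucleotide reductase that p53 is known to induce. Dctd and Nme1, which make precursors of DNA, changed by -0.46 (SE 0.16, edgeR adjusted p = 0.0191) and -0.40 (SE 0.11, edgeR adjusted p = 0.002199).

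Of 25 genes that control entry into S phase 11 were lower and 2 higher, with a median of -0.20. Tfdp1, the partner of E2F proteins, changed by -0.28 (SE 0.075, edgeR adjusted p = 0.00235), and E2f2, at -0.24 (SE 0.24, edgeR adjusted p = 0.441), did not pass and had nearly the same rhythm in both treatments, with amplitudes of 1.17 and 1.24 and peaks at ZT23.4 in naïve and ZT23.2 in CIA mice. The 2 that rose were Tfdp2, another E2F partner, at 0.15 (SE 0.052, edgeR adjusted p = 0.0222), and Cdkn1a, the inhibitor of cyclin-dependent kinases known as p21, at 0.29 (SE 0.10, edgeR adjusted p = 0.0232). Rrm2b, Tfdp2 and Cdkn1a were named after their values were seen. Of 30 mitosis genes 21 were lower and 0 higher, with a median of -0.48. Their mean peak fell later, at ZT2.16 in naïve and ZT2.40 in CIA mice, so the mean peaks of replication and mitosis genes stood apart in the same order in both treatments; the distance between them was not tested. Ndc80, which binds chromosomes to the spindle, peaked at ZT2.06 in naïve and ZT2.23 in CIA mice, and Espl1, which parts sister chromatids, at ZT1.78 in naïve and ZT1.82 in CIA mice.

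Within the 43 genes, levels moved together from library to library. Over the 60 libraries the 903 pairs had a median Pearson correlation of log2 CPM of 0.782, from -0.227 to 0.979, and the closest pair was Mcm5 and Mcm6. After the mean of each of the 12 groups was taken out, the median was 0.604, and 895 of 903 pairs were above 0. Mcm5 had the highest mean correlation with the other genes, 0.812 over the 60 libraries, and Gins4, Rnaseh2b and Rnaseh2a the lowest, 0.208, 0.224 and 0.243. These values describe 60 libraries that share the time of day, treatment and makeup of the section. The mean log2 CPM of the 43 genes correlated at 0.992 with that of the chromatin assembly genes, at 0.521 with that of the mitosis genes and at -0.348 with the smooth muscle score over the 60 libraries. Values larger in size than for smooth muscle were also found for core clock genes (-0.747) and for macrophage (0.533), enteric neuron (-0.506) and crypt base markers (0.409). After the mean of each group was taken out, the value for smooth muscle was -0.25.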

How the data were processed

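RNA Seq libraries from mid-colon were made by the authors with a stranded kit and sequenced, and the reads were trimmed (Trimmomatic 0.36), aligned to GRCm38 (STAR 2.5.3) and counted per gene with Rsubread. The file that the authors deposited holds raw read counts for each gene, without normalization. The strand setting of the counting is not given in the sources used here. Low counts were mostly even numbers (73.95%), against 50.46% of high counts, so an alternative used halved counts. Of the 43 genes, 11 overlap another gene in RefSeq (Orc1, Mcm7, Cdc45, Gins2, Pold2, Pole2, Rfc4, Rpa1, Fen1, Lig1 and Rnaseh2b), and their counts may hold reads of the neighbour.

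Groups came from the sample labels. Genes were kept by filterByExpr over the 12 groups (minimum count 10, total 15), scaled by TMM and tested with edgeR 4.0.16 (quasi-likelihood F test) in R 4.3.3, with Benjamini-Hochberg adjustment over 18057 genes and a threshold of 0.05. Treatment over the day, treatment at each time point and the interaction were tested on all 60 libraries. The SE of a log2 fold change is the value divided by the root of its F statistic. Rhythm was tested by a 24 h cosine in each treatment with limma 3.58.1 on log2 CPM (prior count 2), and the SE of a peak time comes from the delta method. The class of a gene is the one of 5 models with a Schwarz weight of at least 0.6. DESeq2 1.42.0, other filters, scores of other cell types as covariates, a replicate block and the removal of each library in turn were the alternatives. A score is the mean log2 CPM of a list. Nothing in the labels shows that same-numbered mice of the treatments belong together, and over 30 such pairs the correlation of their deviations ran from -0.471 to 0.446, with 8 above 0.1, so the numbers were not taken as pairs.

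The 43 genes and the related lists were chosen with earlier results of these data known. Values per mouse are given for the gene of each of the 9 roles with the largest naïve amplitude, for genes outside the class same, and for up to 4 genes in each direction with the smallest adjusted p, and 2 genes of each related list with the smallest adjusted p for naïve rhythm are named. Most values per mouse shown are from ZT20, where the median log2 fold change of the 43 genes was largest in size (-0.49). No rule set that time beforehand. Programs were tested on simulated data. Intervals and p-values measure the spread between mice. The fit of treatment over the day held treatment alone, so its spread also includes differences between times of day. With time point as a term 36 of the 43 genes were lower.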

Additional observations from a re-analysis of the deposited data

Results flagged for a closer look

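In 14 genes with values per mouse and 12 groups of 5 mice, 168 sets in all, 7 (4.17%) had a mouse that stood apart from the other 4 by more than 0.71 of the range of the set, and chance gives about 1 in 20. Replicate 3 of the naïve mice at ZT8 was such a mouse 4 times. It had 5.72 CPM of Cdc6 against 1.40 to 2.55 CPM in the other 4, 24.1 CPM of Mcm3 against 11.3 to 13.6, 9.89 CPM of Prim1 against 6.47 to 6.85 and 5.99 CPM of Dna2 against 3.27 to 4.00. The others were replicate 2 of the CIA mice at ZT20 for Cdc45, with 10.1 CPM against 4.72 to 6.23, and, among naïve mice at ZT12, replicate 2 for Prim1, with 9.73 CPM against 7.42 to 7.88, and replicate 4 for Mcm2, with 17.4 CPM against 11.6 to 13.01.

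Replicate 3 of the naïve mice at ZT8 had the highest value of its group for 35 of the 43 genes, with a median ratio of 1.41 to the mean of the other 4. The mean log2 CPM of the 43 genes was 3.95 in it and from 3.37 to 3.51 in the others. Its mitosis score of 4.03 and its smooth muscle score of 9.14 lay within the range of the others, 3.75 to 4.23 and 8.95 to 10.2.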

How the results depend on the processing

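When the smooth muscle score was added to the fit, the count of genes lower in CIA mice went from 31 to 0, and the pairs of gene and time point called went from 25 to 3, or to 15 with the epithelium score. The cause was not tested. With the replicate block 28 genes were lower and 24 pairs were called. For pairs, no share over all genes was counted under these settings. No filter gave 26 lower, a mean of at least 5 CPM 22, time point as a term 36, halved counts 30 and DESeq2 29. Removing each library in turn gave 22 to 32 genes lower, and 12 to 31 pairs. The pairs fell to 16 without CIA ZT12 replicate 4, 12 and 13 without CIA ZT20 replicates 3 and 5, and 13, 15 and 15 without naïve ZT20 replicates 2, 3 and 5. In these runs 40 to 42 genes were rhythmic in naïve and 39 to 43 in CIA mice, 36 to 38 of the 43 peaked later in CIA mice, and 20 to 31 had the larger amplitude in naïve mice. Without the pair of libraries that stood apart by clock genes, 34 of the 43 peaked later, in place of 37. The log2 fold change of Gins4 turned to 0.015 with the 5 CPM minimum and ran from -0.033 to 0.018 when single libraries were removed, above 0 in 3 runs, and that of Rpa3 turned to 0.090 with the smooth muscle score. The counts of later peaks and larger amplitudes were added after values were seen.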

Other observations

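Mitosis genes, the next step of the cell cycle, had larger fitted amplitudes in CIA mice, with a median of 0.87 on the log2 scale against 0.60 in naïve mice. The amplitude was larger in CIA mice for 30 of the 30 genes. Over all 18057 genes tested, 10304 had the larger amplitude in naïve mice. In the model selection, however, 29 of the 30 mitosis genes took the class same, and 0 took loss, gain or change. Of the 29 rhythmic in both treatments 20 had a later fitted peak in CIA mice, with a median shift of 0.179 h. The genes share their libraries, and the differences in amplitude and peak time of these lists were not tested over samples. All 16 core clock genes were rhythmic in both treatments, 0 were lower and 1, Cry2, was higher in CIA mice. The class was same for 15 and change for 1, Per2, which peaked at ZT15.8 in the naïve group and at ZT14.3 in the CIA group. Cry2 and Per2 were named after their values were seen.

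Genes with and without an E2F word in the promoter window were set side by side. Of the 14 with a word 13 were lower in CIA mice, beside 31 of all 43 and 20.4% of all genes tested, with a median log2 fold change of -0.36. Of the 21 without a word 15 were lower, with a median of -0.30, and of the 8 genes without a window 3 were lower, with a median of -0.23. The groups were not tested against each other.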
